A study of Mus musculus with 4 samples.

Results

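Egfr encodes the receptor for epidermal growth factor and its relatives. In the germinal zone along the lateral ventricle, radial glia-like stem cells in quiescence carry little of it, and cells that leave quiescence gain it before they divide. The cells described here are nondividing, Slc1a3-expressing cells of the dorsal ventricular-subventricular zone (V-SVZ) at postnatal day 12 (P12) that already held Egfr transcripts, called primed cells, set beside those that held none, called negative cells. Slc1a3 encodes the glutamate transporter GLAST, a marker of radial glia, stem cells and astrocytes. Members were chosen by their counts of unique molecular identifiers (UMIs, each standing for 1 captured RNA molecule). A cell was nondividing if it held at least 3 UMIs of Slc1a3 and none of the cycle genes Mki67, Top2a, Mcm2, Mcm5 and Cdc6, of the ependymal gene Foxj1, of the oligodendroglial genes Olig1 and Olig2, or of the neuronal genes Dcx, Dlx1 and Dlx2. Of the 11602 P12 cells kept, 3281 were nondividing. Among these, 425 held at least 2 Egfr UMIs and were primed, 2256 held none and were negative, and 600 held exactly 1 and entered neither class. These values chose the cells, so that Egfr, Slc1a3 and the 11 genes required to be absent are not results. The whole series held 19860 cells by the same filter.

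As background, EGFR is a receptor tyrosine kinase that signals largely through RAS and the MAPK cascade, and ligands such as TGFA and HBEGF activate it. In the V-SVZ, quiescent stem cells share many transcripts with astrocytes, and activation is known for D-type cyclins and for a rise in the machinery of protein synthesis. Notch signaling, with Hes1 and Hes5 as targets, and BMP signaling, with the Id genes as targets, are known to hold these cells in quiescence.

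The cells came from OF1 wild-type mice, an outbred strain, with no transgene or treatment in any group. Cells were dissociated with papain, sorted for viability and captured in droplets for 10x Genomics single-cell sequencing with version 3 chemistry. P12 had 2 libraries from independent experiments, replicates 1 and 2, and P2 and P22 had 1 library each, all labelled male, although the study's methods state that a female was included at P2. The methods state that 2 mice were pooled by time point, which does not say how many went into each P12 library, and n = 2 counts libraries. Kept cells had 2000 to 8000 detected genes and under 10% mitochondrial UMIs. The files held 106402687 UMIs in P12 replicate 1 and 80386488 in P12 replicate 2 over 8617 and 6400 barcodes, of which 7006 and 4596 were kept, and these shared 8 barcodes.

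Replicate 1 gave 155 primed and 1366 negative cells, and replicate 2 gave 270 primed and 890 negative cells. Primed cells made up 8.55% of nondividing cells in replicate 1 (exact 95% interval 7.30 to 9.93) and 18.4% in replicate 2 (16.4 to 20.5). The intervals cover counting error only, and the difference between the libraries is larger than it. Kept cells with at least 3 UMIs of microglial (C1qa, Cx3cr1, Csf1r) or endothelial (Cldn5, Flt1) markers, which served as background, held 2 or more Egfr UMIs in 1 of 20 in replicate 1 (exact 95% interval 0.127 to 24.9%) and 2 of 40 in replicate 2 (0.611 to 16.9%), at medians of 10973 and 15531 UMIs. These intervals overlap those of the primed share, so that with so few background cells it is not resolved how far the primed share exceeds this background. Primed cells were deeper than negative cells. Their median was 11943 UMIs against 9187 in replicate 1 and 13834.5 against 11849 in replicate 2. Part of the negative class may hold Egfr below detection, as 0 Egfr UMIs at a median of 9187 or 11849 UMIs per cell do not show that a cell lacks it. At an equal 5000 UMIs per cell the medians of detected genes were 2356 against 2324 and 2403.5 against 2392. Repeating every gate on counts thinned to 5000 UMIs left 91 of 2587 (3.52%) and 180 of 2283 (7.88%) nondividing cells primed. For cells 1 UMI apart, Mycn stood at 37.1 and 26.5 UMIs per 1000000 UMIs of the class (CPM) in cells with exactly 1 Egfr UMI and at 56.4 and 32.3 in those with exactly 2, in replicates 1 and 2, and Clu at 3941 and 3622 against 3329.7 and 3092. Not every gene stepped in both libraries. Hes6 stood at 45.7 and 31.9 against 105.7 and 31.7 CPM, and Draxin at 57.2 and 59.6 against 134 and 56.9 CPM. Neither of them rose at this step in replicate 2.

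UMIs were summed over the cells of a class in each library, and the sums compared by edgeR's quasi-likelihood test with the library as block. Levels are CPM, the value of replicate 1 first, and fold changes are of primed over negative cells on the log2 scale. Of 12940 genes tested, 524 were higher in primed cells (4.05%) and 375 were lower (2.90%), at an adjusted p under 0.05. The median log2 fold change over all tested genes was 0.01. Of these 899 genes, 897 moved the same way in both P12 libraries. This largely follows from the call, as both libraries entered the test, and is given as a description. With every gate on thinned counts, 396 of 12546 genes were higher (3.16%) and 327 lower (2.61%), 5.76% in all, and 468 of the 899 passed again in the same direction. The 4 sums leave each gene 1 residual degree of freedom, so that the result rests largely on the spread pooled over genes. With each cell thinned to 5000 UMIs, which left out 34 and 26 negative cells and 6 primed cells of replicate 2 below that depth, 344 of 11531 genes were higher (2.98%) and 220 lower (1.91%), 4.89% in all. DESeq2 called 93 genes higher (0.719%) and 39 lower (0.301%). Without the block edgeR called 0 genes, with 756 at an unadjusted p under 0.05.

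Neurogenic regulators were higher in primed cells. Insm1, a zinc finger factor of neurogenic progenitors, stood at 9.15 and 4.02 CPM in negative and 57.1 and 23.9 CPM in primed cells (log2 fold change 2.59 ± 0.20 SE, adjusted p = 3.41e-09). Eomes, the factor of glutamatergic progenitors also called Tbr2, was nearly absent from negative cells, with 1.02 and 0.862 CPM, and reached 20.3 and 11.2 CPM in primed cells (log2 fold change 4.0 ± 0.38 SE, adjusted p = 1.37e-07). Of the 18 tested genes of neuronal commitment, 8 rose and 0 fell (4.05% and 2.90% of all genes), with a median log2 fold change of 0.43 against 0.01 over all genes. They include Neurog2 (log2 fold change 1.49 ± 0.31 SE, adjusted p = 0.00326), which drives glutamatergic fate, Elavl4 (log2 fold change 1.49 ± 0.16 SE, adjusted p = 7.36e-07), an RNA-binding protein of neurons, and Sox4 and Sox11, at log2 fold changes of 0.72 and 0.60. With every gate on thinned counts Neurog2 did not pass (adjusted p = 0.0676), and 7 of 16 tested genes of the list did.

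**Figure D1:**
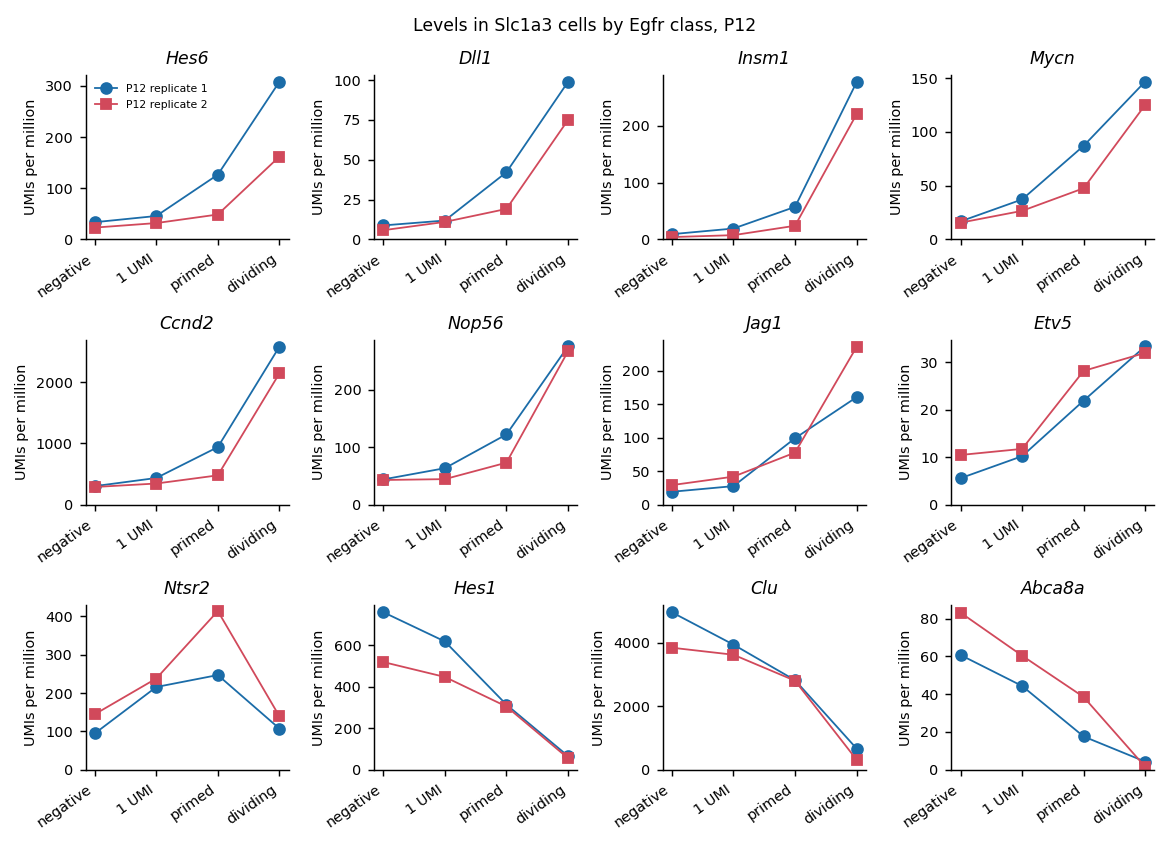
Level (CPM, linear axes from 0) of 12 genes in Slc1a3 cells with no Egfr UMI (negative), exactly 1, 2 or more (primed) and in dividing Egfr cells, with 1 point per P12 library and lines only joining the points of a library. Dll1 went from 8.76 and 5.75 in negative to 42.2 and 19.1 in primed and 98.9 and 75.0 in dividing cells, Clu from 4959 and 3844 to 2821 and 2804 and 669 and 318, and Ntsr2 was highest in primed cells.

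Of 17 tested Notch pathway genes 3 rose, 2 fell and 12 did not pass, with a median of 0.05. Over all genes 4.05% rose and 2.90% fell. Among the ligands, Dll1 was at 8.76 and 5.75 CPM in negative and 42.2 and 19.1 CPM in primed cells (log2 fold change 2.01 ± 0.21 SE, adjusted p = 6.51e-07), and Jag1 at 19.2 and 29.1 and 99.3 and 77.8 CPM (log2 fold change 1.84 ± 0.16 SE, adjusted p = 1.63e-08). Hes6, a Hes family member that antagonises Hes1, stood at 33.5 and 23.0 CPM in negative and 127 and 48.6 CPM in primed cells (log2 fold change 1.51 ± 0.15 SE, adjusted p = 2.17e-07). Both effectors of Notch signaling were lower. Hes1 fell from 758 and 518 to 313 and 304 CPM (log2 fold change -1.03 ± 0.13 SE, adjusted p = 1.33e-05). Hes5 fell from 1472 and 1589 to 904 and 1202 CPM (log2 fold change -0.57 ± 0.14 SE, adjusted p = 0.0116), but did not pass with every gate on thinned counts (adjusted p = 0.0601). The receptors Notch1 (log2 fold change 0.35, adjusted p = 0.0771) and Notch2 (-0.08, adjusted p = 0.789) did not pass. Dll3, a ligand-like inhibitor, was too sparse to be tested, with 7 and 0 UMIs in primed cells.

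Dll1, Jag1 and Hes6 rose together, and their promoters are shown for this reason, chosen with the motif after their values were seen, with 250 bases before and 50 bases after a RefSeq start site on GRCm38.p6, the build of the files. Capitals mark CAGCTG, an E-box, the kind of site that basic helix-loop-helix factors are known to bind, which reads the same on both strands.
Dll1 (chr17:15376883-15377182, minus strand): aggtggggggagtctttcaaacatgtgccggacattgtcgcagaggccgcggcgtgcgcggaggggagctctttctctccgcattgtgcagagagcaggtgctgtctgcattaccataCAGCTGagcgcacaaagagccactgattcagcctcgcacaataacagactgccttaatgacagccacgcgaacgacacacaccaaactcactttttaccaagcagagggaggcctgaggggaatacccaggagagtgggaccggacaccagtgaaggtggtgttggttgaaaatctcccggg
Jag1 (chr2:137116471-137116770, minus strand): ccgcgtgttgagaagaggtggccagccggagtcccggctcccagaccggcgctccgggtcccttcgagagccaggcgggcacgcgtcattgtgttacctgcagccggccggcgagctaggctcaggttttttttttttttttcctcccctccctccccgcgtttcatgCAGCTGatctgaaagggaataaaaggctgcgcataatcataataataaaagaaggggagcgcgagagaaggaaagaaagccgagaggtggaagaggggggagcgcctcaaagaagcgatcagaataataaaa
Hes6 (chr1:91413989-91414288, minus strand): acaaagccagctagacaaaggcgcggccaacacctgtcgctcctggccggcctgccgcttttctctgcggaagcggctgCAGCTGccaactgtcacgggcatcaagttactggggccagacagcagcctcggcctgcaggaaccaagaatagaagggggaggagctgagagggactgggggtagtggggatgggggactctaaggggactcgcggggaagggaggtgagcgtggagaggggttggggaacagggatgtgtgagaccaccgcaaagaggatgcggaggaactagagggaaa
Each of these windows holds 1 match, and the window of the other listed Dll1 start site holds none. Over the 9833 tested genes with a promoter in the table, 17.6% hold CAGCTG in at least 1 listed window, so that its presence is common and is given as a description. The letters say nothing on whether the site is bound in these cells.

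Genes around the receptor itself were read from short lists. None of the 6 tested EGFR family ligands and none of the 15 tested coreceptors and regulators passed, against 6.95% of all genes in either direction (edgeR). In lists this short, 0 calls do not set these genes apart from all genes. DESeq2 called 0 of either group as well, and 1 of each had an unadjusted p under 0.05 by edgeR. Tgfa had a log2 fold change of -0.33 ± 0.25 SE, Hbegf of 0.65 ± 0.29 and Nrg1, a ligand of ERBB3 and ERBB4, of -0.19 ± 0.11. Erbb2, the partner of EGFR in heterodimers, stood at 13.6 and 17.8 CPM in negative and 8.01 and 13.5 CPM in primed cells (adjusted p = 0.181). Erbb3 held 1 UMI in all negative and 0 in all primed cells at P12, and Erbb4 held 11 and 5, so that neither was tested. The feedback inhibitor Errfi1 (log2 fold change 0.27, adjusted p = 0.525) and the receptor-lowering Lrig1 (0.14, adjusted p = 0.687) did not pass.

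Targets and feedback genes of the MAPK cascade split. The ETS factors Etv4 and Etv5, which MAPK signaling is known to induce, both rose. Etv5 went from 5.55 and 10.4 CPM in negative to 21.9 and 28.2 CPM in primed cells (log2 fold change 1.63 ± 0.22 SE, adjusted p = 1.84e-05), and Etv4 from 3.28 and 5.56 to 10.1 and 12.5 CPM (log2 fold change 1.33 ± 0.30 SE, adjusted p = 0.00639). Phlda1 fell from 112 and 100.2 to 41.1 and 55.2 CPM (log2 fold change -1.11 ± 0.14 SE, adjusted p = 5.15e-06). Ier3 fell from 17.1 and 15.7 to 2.14 and 4.52 CPM (log2 fold change -2.16 ± 0.31 SE, adjusted p = 4.25e-05), but did not pass with every gate on thinned counts (adjusted p = 0.592). Both are also known as early response genes. The Sprouty inhibitors Spry2 (log2 fold change -0.10) and Spry4 (0.42) and the phosphatase Dusp6 (0.26) did not pass, so that of 18 tested genes 2 rose and 2 fell, with a median of 0.09. Among all tested genes 4.05% rose and 2.90% fell. Spry1 was too sparse for the test, with 9 and 3 UMIs in primed cells.

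Of 24 tested G1 genes 5 rose and 0 fell in primed cells, where 4.05% of all genes rose. DESeq2 called 1 of the 24 higher, and 3 rose with each cell thinned to 5000 UMIs. Ccnd2, a D-type cyclin, went from 301 and 287 CPM in negative to 939.5 and 478 CPM in primed cells (log2 fold change 1.17 ± 0.15 SE, adjusted p = 1.15e-05). The partner kinases of D-type cyclins also rose, Cdk6 from 8.83 and 7.76 to 21.4 and 13.8 CPM (log2 fold change 1.03 ± 0.24 SE, adjusted p = 0.00682) and Cdk4 from 115 and 104 to 201 and 130.1 CPM (log2 fold change 0.55 ± 0.12 SE, adjusted p = 0.00401). Mycn, a MYC family factor of progenitor growth, went from 16.7 and 15.5 to 87.0 and 47.5 CPM (log2 fold change 1.99 ± 0.16 SE, adjusted p = 8.14e-09), whereas Myc did not pass (log2 fold change -0.03, adjusted p = 0.979). Ccnd1 passed (log2 fold change 1.01 ± 0.30 SE, adjusted p = 0.0398), but its rise came from replicate 1, with 9.54 and 10.5 CPM in negative and 37.9 and 9.56 CPM in primed cells, and in replicate 2 the primed cells were the lower ones. The inhibitor Cdkn1b, known as p27, did not pass (log2 fold change -0.18, adjusted p = 0.431).

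Of 30 tested S phase genes, none of them used by the rule, 2 rose and 0 fell, against 4.05% higher and 2.90% lower over all genes. These were Nasp (log2 fold change 0.40 ± 0.11 SE, adjusted p = 0.0263), a histone chaperone, and Mcm7 (log2 fold change 0.58 ± 0.14 SE, adjusted p = 0.00771), a subunit of the replicative helicase. DESeq2 called 0 of the 30, of which 7 had an unadjusted p under 0.05 by edgeR. The 30 genes summed to 799.7 and 646 CPM in primed and 654 and 618 CPM in negative cells, against 5741 and 5926 CPM in dividing cells. Of 26 tested G2 and M phase genes 0 rose and 1 fell, Hmmr, with 1 UMI in primed cells of each library, and it did not pass with every gate on thinned counts (adjusted p = 0.495). Hmgb2 (-0.26, adjusted p = 0.181) and Smc4 (-0.36, adjusted p = 0.0677), the others of that list with the smallest p, did not pass. The rule had required the absence of 5 cycle genes from both classes. Leaving out, in addition, every cell with a UMI of Rrm2, Cdk1, Birc5, Ccna2 or Clspn left 120 and 224 primed and 1124 and 759 negative cells, and 609 genes were then higher and 455 lower.

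Genes of protein synthesis were higher in primed cells. Of 30 tested ribosome biogenesis genes 19 rose and 0 fell, against 4.05% and 2.90% of all genes. Their median log2 fold change was 0.63 against 0.01 over all genes, and 28 of the 30 were higher in both libraries. Nop56, of the box C/D small nucleolar complex, went from 43.9 and 42.8 CPM in negative to 122 and 73.0 CPM in primed cells (log2 fold change 1.10 ± 0.13 SE, adjusted p = 4.97e-06). Its partner Nop58 went from 73.0 and 61.1 to 159.6 and 98.0 CPM (log2 fold change 0.89 ± 0.12 SE, adjusted p = 1.67e-05), and the nucleolar GTPase Gnl3, also called nucleostemin, from 60.5 and 50.1 to 117 and 87.7 CPM (log2 fold change 0.86 ± 0.11 SE, adjusted p = 1.38e-05). With every gate on thinned counts 14 of 30 rose and 0 fell, and DESeq2 called 8 and 0. Summed, the 30 genes took 1723 and 1603 CPM in negative and 3236 and 2172 CPM in primed cells, so that replicate 1 moved further than replicate 2.

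Ribosomal protein genes had smaller changes. All 79 tested ones were higher in primed cells in both libraries, with a median of 0.41, and 33 passed, such as Rpsa, with 678 and 569 CPM in negative and 1331 and 794 CPM in primed cells (log2 fold change 0.71 ± 0.14 SE, adjusted p = 0.00144). Together they made up 55958 and 54890.5 CPM of negative and 84639 and 64067 CPM of primed cells. Many have near-identical pseudogenes, so that single values are uncertain. The count of calls moved with the test and the cells used, to 9 of 79 by DESeq2, to 17 of 79 with every gate on thinned counts and to 75 of 79 in pallial cells alone (of all genes there 5.48% were higher), with 0 lower in each. Of 24 tested translation factors 8 rose and 0 fell, where 4.05% of all genes rose and 2.90% fell. Among the 8 were the helicase Eif4a1 (log2 fold change 0.75 ± 0.12 SE, adjusted p = 2.38e-04), Eif5a (0.69) and the elongation factor subunit Eef1b2 (0.53).

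**Figure D2:**
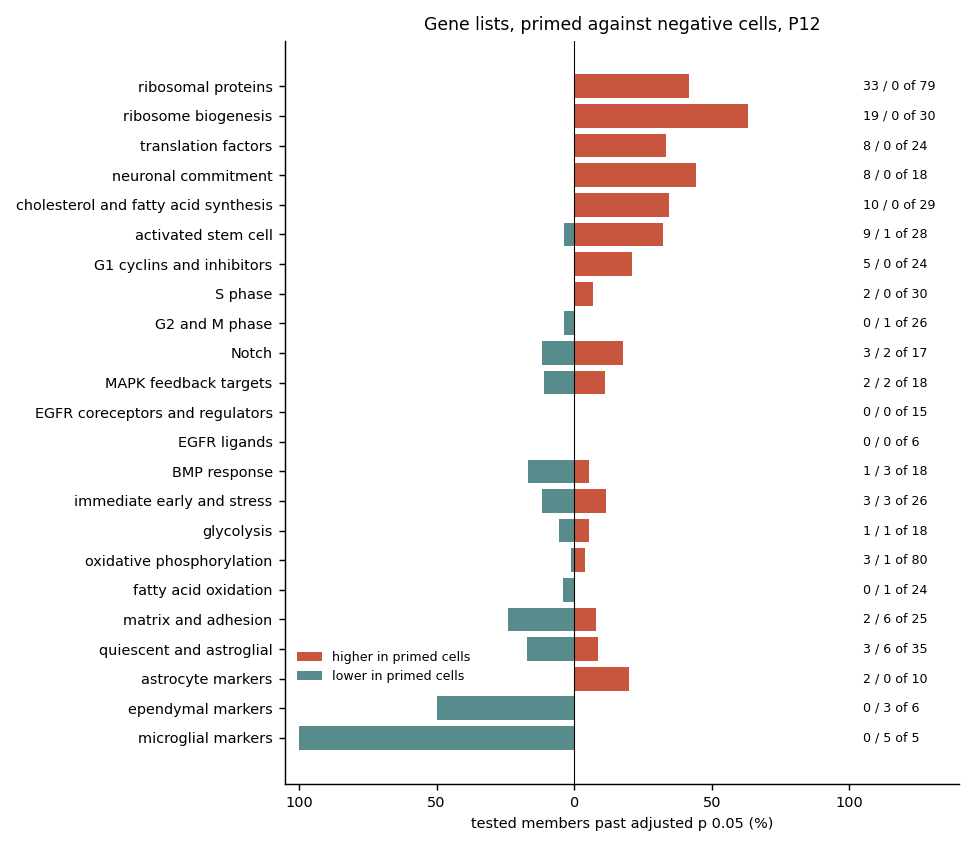
Share of the tested members of 23 gene lists that were higher (right, red) or lower (left, teal) in primed than in negative cells at an adjusted p under 0.05 (edgeR), with the counts higher / lower of those tested at the right. Ribosome biogenesis had 19 of 30 higher and 0 lower, and the EGFR ligands had 0 of 6 in either direction. Over all genes the shares were 4.05% higher and 2.90% lower.

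Of 29 tested genes of cholesterol and fatty acid synthesis 10 rose and 0 fell, with a median of 0.32, against 4.05% higher and 2.90% lower over all genes. Fdps, which makes farnesyl diphosphate, went from 49.9 and 50.9 CPM in negative to 71.5 and 77.0 CPM in primed cells (log2 fold change 0.55 ± 0.12 SE, adjusted p = 0.00399), and Sqle, the squalene epoxidase, from 90.3 and 73.4 to 132 and 104 CPM (log2 fold change 0.51 ± 0.11 SE, adjusted p = 0.00401). Acly, which supplies cytosolic acetyl-CoA, passed as well (log2 fold change 0.62 ± 0.14 SE, adjusted p = 0.00633), though not with every gate on thinned counts (adjusted p = 0.435). In pallial cells alone 1 gene of this list rose and 1 fell, against 5.48% and 4.12% of all genes there. With all cells DESeq2 called 0 of 29, against 16 at an unadjusted p under 0.05 by edgeR. The list summed to 3797 and 4635 CPM in negative and 3497 and 5077 CPM in primed cells, lower in replicate 1 and higher in replicate 2.

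Fatty acid oxidation, which quiescent stem cells are known to use, gave 0 rises and 1 fall among 24 tested genes, Acaa2, a thiolase (log2 fold change -0.38 ± 0.11 SE, adjusted p = 0.0359), with a median of -0.07. Glycolysis gave 1 rise, Ldha (log2 fold change 0.42 ± 0.11 SE, adjusted p = 0.018), and 1 fall, Aldoc (log2 fold change -0.53 ± 0.15 SE, adjusted p = 0.0242), among 18. Over all genes 4.05% were higher and 2.90% lower. Of 80 tested nuclear genes of oxidative phosphorylation 3 rose, Cox5a (0.43), Atp5g1 (0.41) and Ndufb4 (0.36), and 1 fell, Cox4i2 (-0.67), a subunit isoform known from vascular and hypoxic settings. With every gate on thinned counts 1 of the 80 rose, Atp5g1 (adjusted p = 0.0378), and 1 fell, and Cox5a did not pass (adjusted p = 0.0878). Ndufb4 here, and Mt1, Fgfr3 and Igf1 further on, lie outside the rule for named genes and were chosen after their values were seen.

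Genes shared by quiescent stem cells and astrocytes split. Of 35 tested ones 6 fell and 3 rose, with a median of -0.24, against 2.90% lower and 4.05% higher over all genes. Thbs4, a secreted thrombospondin, fell from 655 and 658 CPM in negative to 291 and 448 CPM in primed cells (log2 fold change -0.87 ± 0.14 SE, adjusted p = 2.13e-04). Clu, the chaperone clusterin, fell from 4959 and 3844 to 2821 and 2804 CPM (log2 fold change -0.65 ± 0.16 SE, adjusted p = 0.0126), and Abca8a, a lipid transporter, from 60.8 and 83.2 to 17.6 and 38.5 CPM (log2 fold change -1.34 ± 0.15 SE, adjusted p = 1.54e-06). The other 3 that fell were Aldoc, Id4 and Mt1. Those that rose were Ntsr2, a neurotensin receptor of astrocytes, from 94.7 and 145 to 247 and 414 CPM (log2 fold change 1.44 ± 0.11 SE, adjusted p = 5.20e-09), Tril (log2 fold change 1.41 ± 0.17 SE, adjusted p = 6.40e-06), a coreceptor of Toll-like receptors, and Fgfr3 (log2 fold change 0.96 ± 0.13 SE, adjusted p = 3.06e-05), an FGF receptor of astroglia. Hopx (-0.01), Apoe (-0.27), Gfap (-0.16) and Vcam1 (0.17) did not pass, nor did the stem cell marker Prom1 (0.06). In pallial cells alone 17 genes of this list fell and 3 rose, where 4.12% of all genes were lower and 5.48% higher.

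BMP signaling genes gave 1 rise and 3 falls among 18, where 4.05% of all genes rose and 2.90% fell. Id4, an inhibitor of bHLH factors, fell from 1292 and 1045 to 862 and 855 CPM (log2 fold change -0.45 ± 0.14 SE, adjusted p = 0.0411), while Id1 (0.35, adjusted p = 0.0675), Id2 (0.05) and Id3 (-0.10) did not pass. The receptor Bmpr1a did not pass either (0.08 ± 0.11 SE, adjusted p = 0.766). Bmp6 (log2 fold change -0.97 ± 0.28 SE, adjusted p = 0.0316) and the homeobox gene Msx1 (log2 fold change -0.78 ± 0.22 SE, adjusted p = 0.0284) were lower, and Bmp7 (log2 fold change 1.12 ± 0.32 SE, adjusted p = 0.0314) higher in primed cells. With every gate on thinned counts Bmp6 (adjusted p = 0.216) and Bmp7 (adjusted p = 0.0652) did not pass, and DESeq2 called 0 of the 18, of which 7 had an unadjusted p under 0.05 by edgeR.

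Of 25 tested matrix and adhesion genes 6 fell and 2 rose, against 2.90% lower and 4.05% higher over all genes. Pcdh8, a protocadherin, fell from 219.5 and 152 to 95.6 and 93.2 CPM (log2 fold change -0.95 ± 0.13 SE, adjusted p = 1.69e-05). Itga6, the laminin receptor subunit, rose from 19.0 and 35.7 to 33.1 and 59.5 CPM (log2 fold change 0.75 ± 0.14 SE, adjusted p = 0.00151). Tnc, a matrix protein of the niche, did not pass (-0.25, adjusted p = 0.216). Immediate early and stress genes, which dissociation can raise, gave 3 rises and 3 falls among 26, against the same shares over all genes. Egr2 went from 20.0 and 22.9 to 34.2 and 42.8 CPM (log2 fold change 0.83 ± 0.16 SE, adjusted p = 0.00114) and Ier5 from 67.6 and 38.6 to 125 and 54.2 CPM (log2 fold change 0.69 ± 0.12 SE, adjusted p = 6.13e-04), and Cebpb fell from 229 and 180.1 to 155 and 122 CPM (log2 fold change -0.58 ± 0.11 SE, adjusted p = 0.00177). Mitochondrial UMIs made up 2.04% and 2.13% of primed sums against 1.66% and 1.77% of negative sums. DESeq2 called 0 of the 26 immediate early and stress genes, of which 6 had an unadjusted p under 0.05 by edgeR. The part of cell state after dissociation in these values was not tested.

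Some of the largest rises were of genes on none of the lists. Coro1c, an actin-binding coronin, went from 9.07 and 9.39 CPM in negative to 46.4 and 28.2 CPM in primed cells (log2 fold change 1.95 ± 0.20 SE, adjusted p = 3.43e-07), and Baz1a, a subunit of a chromatin remodeler, from 4.14 and 4.98 to 26.2 and 15.4 CPM (log2 fold change 2.11 ± 0.27 SE, adjusted p = 1.22e-05). Draxin, a secreted guidance cue, went from 37.1 and 37.6 to 168 and 97.7 CPM (log2 fold change 1.76 ± 0.14 SE, adjusted p = 4.13e-09). Aff3 (1.74) and Lzts1 (1.66) also belong to the 12 largest rises, and Lima1, an actin regulator on the list of activated stem cell genes, went from 69.7 and 73.3 to 258 and 146 CPM (log2 fold change 1.42 ± 0.14 SE, adjusted p = 2.03e-07). On that list 9 of 28 tested genes rose and 1 fell, against 4.05% and 2.90% of all genes. The 1 that fell was the filament gene Vim (log2 fold change -0.47 ± 0.13 SE, adjusted p = 0.025, and 0.077 with every gate on thinned counts), while Nes (0.32) and Sox2 (-0.10) did not pass.

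Of 5 genes of an Igf1- and Wfikkn2-expressing glial group 4 rose, where 4.05% of all genes rose. This list was chosen with earlier results of these data known, so that the count is a description. Ptgds, a prostaglandin D synthase, went from 17.0 and 6.90 CPM in negative to 64.6 and 24.97 CPM in primed cells (log2 fold change 1.87 ± 0.17 SE, adjusted p = 7.05e-08), and Pdgfa, a ligand of oligodendrocyte precursors, from 23.5 and 18.6 to 86.5 and 37.5 CPM (log2 fold change 1.45 ± 0.17 SE, adjusted p = 1.96e-06). Igf1 (0.96) and Jag1, given above, were the others. Among the 12 largest falls were Prelp, a matrix proteoglycan, from 38.9 and 39.8 to 15.5 and 14.1 CPM (log2 fold change -1.44 ± 0.18 SE, adjusted p = 5.15e-06), Lpar1, a lysophosphatidic acid receptor (log2 fold change -1.23 ± 0.18 SE, adjusted p = 4.93e-05), Pdlim2 (-1.22), Pcdh15 (-1.18) and Ppp1r1b (-1.15), which encodes DARPP-32. Each of these moved the same way in both libraries, which the rule required of the largest rises and falls.

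**Figure D3:**
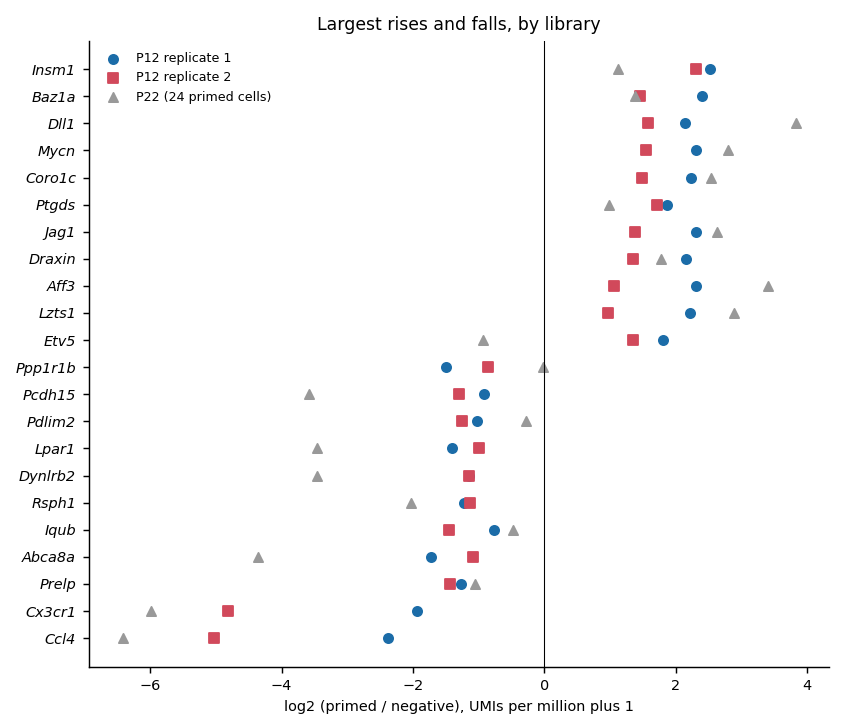
Difference between primed and negative cells in each library for 11 of the 12 genes with the largest rise and 11 of the 12 with the largest fall by the fixed rule, on the log2 scale of CPM plus 1. All 22 lie on the same side of 0 in both P12 libraries, as the rule required. The P22 library (24 primed cells) lies on the other side for Etv5, at -0.93, and at -0.02 for Ppp1r1b.

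Markers of other cell types were examined beside these results. All 5 tested microglial markers were lower in primed cells. Their 7 listed genes summed to 15.0 and 198 CPM in negative and 2.14 and 3.45 CPM in primed cells, highest in negative cells of replicate 2. Cx3cr1 held 36 and 519 UMIs in negative cells and 0 and 3 in primed cells, and Ccl4, a chemokine, 54 and 423 against 0 and 1. Ependymal genes fell too, 3 of 6 tested, with Rarres2 (log2 fold change -0.61 ± 0.14 SE, adjusted p = 0.00871), Cfap126 (log2 fold change -1.07 ± 0.28 SE, adjusted p = 0.0191) and the dynein light chain gene Dynlrb2 (log2 fold change -1.23 ± 0.20 SE, adjusted p = 2.57e-04). With every gate on thinned counts Cfap126 did not pass (adjusted p = 0.0619). The 9 listed ependymal genes outside the rule summed to 164 and 152 CPM in negative and 89.1 and 104 CPM in primed cells. Rsph1, a radial spoke gene (log2 fold change -1.23 ± 0.17 SE, adjusted p = 2.43e-05), and Iqub (-1.25) belong to the same ciliary kind.

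Leaving out every cell with a UMI of 1 of 4 ependymal or 5 microglial markers left 150 and 248 primed and 1306 and 825 negative cells. The microglial genes were then too sparse to be tested, and 3 ependymal genes were still lower. Of the 899 calls, 877 passed again in the same direction, and 746 genes were higher (5.82%) and 559 lower (4.36%), 10.2% in all. The larger count is not particular to this removal. Leaving out only the cells with a UMI of the astrocyte gene Agt gave 751 higher and 562 lower. Oligodendroglial markers gave 0 calls among 5 tested by edgeR and by DESeq2, with 0 at an unadjusted p under 0.05 and summed levels of 160.2 and 119.9 CPM in negative and 137 and 130.1 CPM in primed cells. Endothelial and mural markers gave 1 fall among 3 tested, Rgs5 (log2 fold change -0.54 ± 0.12 SE, adjusted p = 0.0058), which quiescent stem cells express as well. Neuroblast markers gave 2 rises among 7 tested, Elavl4 and Nrxn3 (log2 fold change 0.84 ± 0.21 SE, adjusted p = 0.0133). With all cells of both classes, 4.05% of all genes rose and 2.90% fell.

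Astrocyte markers rose in part. Agt, which encodes angiotensinogen, went from 1.41 and 2.59 CPM in negative to 7.47 and 14.6 CPM in primed cells (log2 fold change 2.44 ± 0.36 SE, adjusted p = 5.96e-05), and the water channel Aqp4 from 246 and 306 to 258 and 641 CPM (log2 fold change 0.58 ± 0.16 SE, adjusted p = 0.0227), with the classes close in replicate 1. The other 8 of 10 tested astrocyte markers did not pass, and DESeq2 called 1 of the 10 higher. Summed, the 10 genes took 842 and 872 CPM in negative and 764 and 1336 CPM in primed cells. The sum was thus lower in primed cells of replicate 1 and higher in those of replicate 2. An Agt UMI was found in 6 of 155 and 20 of 270 primed cells, 3.87% (exact 95% interval 1.43 to 8.23) and 7.41% (4.58 to 11.2), against 1.02% and 1.46% of negative cells. By the study's thresholds for astrocytes, on S100b and Aqp4, 3 and 8 primed cells and 6 and 3 negative cells would count as astrocytes. Without the Agt cells, Aqp4 (adjusted p = 0.0167), Tril (adjusted p = 3.12e-13) and Ntsr2 (adjusted p = 8.52e-29) still passed by edgeR. As Agt was detected in few cells, this does not take out cells with astrocyte transcripts but no Agt UMI. In the 6 and 20 primed cells with an Agt UMI, Ntsr2 stood at 668 and 1327 CPM, and Eomes and Insm1 held 0 UMIs. Dll1 stood at 81.8 and 0 CPM in these few cells and Hes6 at 68.2 and 21.6 CPM. Whether the astrocyte genes rose in the same primed cells as the neurogenic regulators was not tested.

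Levels also differed by the number of Egfr UMIs above the threshold, given as a description since Egfr chose the cells. In replicate 1 Mycn was at 16.7, 37.1, 56.4, 104 and 135 CPM in nondividing cells with 0, 1, 2, 3 and at least 4 Egfr UMIs. In replicate 2 it was at 15.5, 26.5, 32.3, 46.8 and 69.7 CPM. The ribosome biogenesis genes summed to 1723, 2025, 2677, 3974 and 3719.6 CPM over the same groups in replicate 1, highest at 3 Egfr UMIs. In replicate 2 they summed to 1603, 1744, 1896, 2120 and 2599 CPM. Clu was lower at each further step in both libraries, going from 4959 to 2095 CPM and from 3844 to 2450.2 CPM. After thinning every cell to 5000 UMIs, Mycn went from 15.2 at 0 to 147 CPM at 4 or more Egfr UMIs in replicate 1 and from 13.0 to 79.5 CPM in replicate 2. The groups of 3 and of at least 4 Egfr UMIs held 35 and 34 cells in replicate 1 and 62 and 78 in replicate 2.

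**Figure D4:**
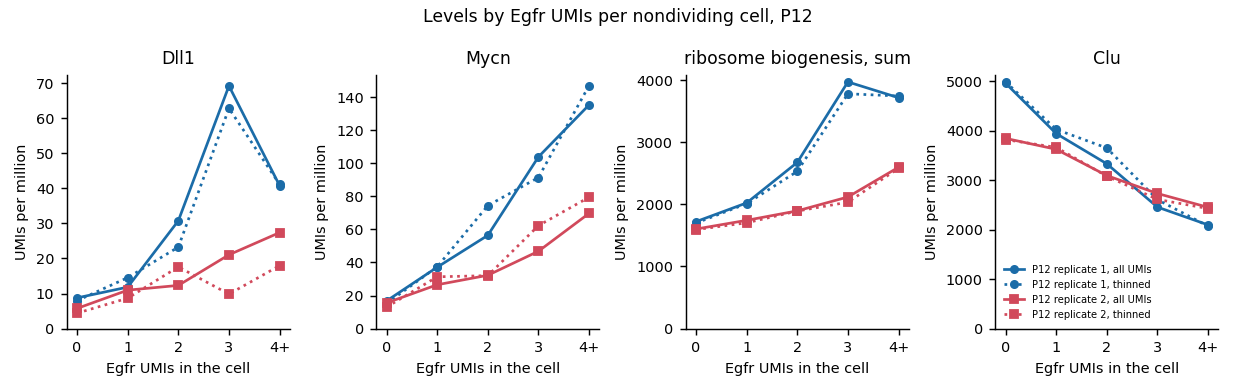
Level (CPM, linear axes from 0) of Dll1, Mycn, the sum of 30 ribosome biogenesis genes and Clu in nondividing cells with 0, 1, 2, 3 and at least 4 Egfr UMIs, in each P12 library, with all UMIs (solid) and with cells thinned to 5000 UMIs (dotted). The first 3 are higher and Clu is lower at 4 or more Egfr UMIs than at 0 in both libraries, and replicate 1 shows the wider range.

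Regional identity was read from genes of the pallium, the dorsal source of glutamatergic neurons, and of the subpallium, the ventral source of GABAergic ones. Emx1, the pallial factor, did not pass (0.04 ± 0.12 SE, adjusted p = 0.918), nor did Gsx2, the subpallial one (0.37 ± 0.24, adjusted p = 0.443), nor Pax6 (-0.32, adjusted p = 0.118). Of 12 tested pallial genes 3 rose, Eomes, Neurog2 and Wnt7b (log2 fold change 1.56 ± 0.28 SE, adjusted p = 6.77e-04), and 1 fell, Tfap2c (log2 fold change -0.58 ± 0.11 SE, adjusted p = 0.00207). Wnt7b did not pass with every gate on thinned counts (adjusted p = 0.724). Of 9 tested subpallial genes 1 fell, Crym, from 10.9 and 5.94 to 0.534 and 2.12 CPM (log2 fold change -2.29 ± 0.47 SE, adjusted p = 0.00284), and it did not pass with every gate on thinned counts (adjusted p = 0.256). Over all genes the shares were 4.05% for rises and 2.90% for falls. The rule removed cells with a Dlx1 or Dlx2 UMI, which takes committed subpallial cells out of both classes.

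Lineage was read from 5 pallial genes (Tbr1, Emx1, Neurog2, Neurod6, Neurod1) and 5 subpallial ones (Gad1, Sp9, Gsx2, Dlx6, Dlx5), and a cell with UMIs from a single one of these groups took its name. Primed cells were 73 of 727 pallial cells in replicate 1, 10.0% (exact 95% interval 7.95 to 12.5), and 127 of 681 in replicate 2, 18.6% (15.8 to 21.8). They were 15 of 100 subpallial cells in replicate 1, 15.0% (8.65 to 23.5), and 29 of 127 in replicate 2, 22.8% (15.9 to 31.1). The subpallial share was higher in both libraries, by 4.57 percentage points on average (SD 0.547, n = 2), with overlapping intervals. Gated on thinned counts the difference was 0.656 points, from 4 of 93 and 10 of 138 subpallial cells, and was not detectable at this depth. No test of this share was made, as an exact permutation of 2 paired differences cannot reach 0.05. In pallial cells alone, with 73 and 127 primed cells, 646 genes were higher (5.48%) and 485 lower (4.12%), 9.60% in all, and 650 of the 899 calls passed again in the same direction. Whether the change differs between the lineages was not tested, as replicate 1 held 15 subpallial primed cells, under the minimum of 20 set for a sum.

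Primed cells were also set beside dividing cells of the same gate, which held at least 2 Egfr UMIs and at least 2 UMIs over the 5 cycle genes, 96 and 101 of them. Their medians were 18325.5 and 24972 UMIs. Of 11219 genes tested 2822 were higher in dividing than in primed cells (25.2%) and 2878 lower (25.7%), 50.8% in all. All 30 S phase and all 30 G2 and M phase genes were higher, as the dividing cells were chosen by cycle genes. Outside these lists the 5 largest rises were also of that kind, the histone genes Hist1h2af and Hist1h2an, the mitotic kinase Haspin, the endonuclease subunit Eme1 and Lrr1. Haspin held 0 UMIs in primed cells of both libraries and 72 and 111 in dividing cells, at least 24.2-fold and 55.0-fold higher than the level of 3 UMIs per library.

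Several groups that were higher in primed than in negative cells were higher still in dividing cells. Dll1 stood at 98.9 and 75.0 CPM in dividing cells (log2 fold change 1.58 ± 0.17 SE, adjusted p = 1.74e-18, dividing over primed) and Ccnd2 at 2580.2 and 2143 CPM (log2 fold change 1.79 ± 0.22 SE, adjusted p = 1.25e-15). Of 30 ribosome biogenesis genes 29 were higher than in primed cells, with a median of 1.04. Etv5 did not pass between primed and dividing cells (log2 fold change 0.33 ± 0.22 SE, adjusted p = 0.195). Of 29 genes of cholesterol and fatty acid synthesis 0 were higher and 19 lower in dividing cells, with a median of -0.55.

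All 35 genes of the quiescent and astroglial list were lower in dividing than in primed cells, with a median of -1.94. They included Hopx (log2 fold change -1.78 ± 0.17 SE, adjusted p = 9.62e-25) and Id3 (log2 fold change -2.95 ± 0.20 SE, adjusted p = 4.01e-47), which had not passed between negative and primed cells, and Ntsr2 (log2 fold change -1.42 ± 0.16 SE, adjusted p = 6.26e-18), which had been higher in primed cells. The 5 largest falls were those of Enpp2, which makes lysophosphatidic acid, Slc39a12, a zinc transporter, Fam20a, Hapln1, a link protein of the matrix, and Paqr6, between -4.26 and -3.74. Bmpr1a, at 158 and 234 CPM in primed and 86.5 and 123 CPM in dividing cells, was lower as well (log2 fold change -0.92 ± 0.15 SE, adjusted p = 1.12e-08). This comparison shares its primed sums with the comparison above.

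The libraries of other ages held few such cells and were not used by the rule. P2 gave 12 primed of 198 nondividing cells and P22 gave 24 of 293, 6.06% (exact 95% interval 3.17 to 10.3) and 8.19% (5.32 to 11.9). With 1 library per age these are values of those libraries, and exact Poisson intervals of the levels cover counting error only. Of the genes higher in primed cells at P12 with at least 10 UMIs at P22, 401 of 464 (86.4%) were higher there too, against 54.4% of all genes tested at P12 that met the same minimum, and 304 of 355 (85.6%) of the lower ones were lower, against 45.6%. At P2 the counts were 319 of 443 (72.0%, against 49.4%) and 231 of 336 (68.8%, against 50.6%).

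At P22 Dll1 stood at 1.51 CPM (interval 0.311 to 4.40) in negative and at 34.6 CPM (interval 16.6 to 63.7) in primed cells. At P2, with 3 primed UMIs, it stood at 3.78 CPM (interval 1.73 to 7.17) and 15.6 CPM (interval 3.23 to 45.7), so that the classes overlap there. Jag1 stood at 10.9 CPM (interval 7.13 to 16.0) and 73.0 CPM (interval 39.9 to 122) at P2, and at 7.03 CPM (interval 3.84 to 11.8) and 48.5 CPM (interval 26.5 to 81.4) at P22, without overlap of the intervals at either age. Insm1 stood at 7.55 CPM (interval 4.48 to 11.9) and 104 CPM (interval 63.7 to 161) at P2, apart, and at 10.5 CPM (interval 6.53 to 16.1) and 24.3 CPM (interval 9.75 to 49.97) at P22, with overlap. Eomes held 0 UMIs in primed cells at P2 and 2 at P22. Clu was lower in primed cells at both ages, with 7595 CPM (interval 7474 to 7717) in negative and 5335 CPM (interval 5072 to 5609) in primed cells of P22.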

How the data were processed

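The authors made the UMI counts per gene and cell with Cell Ranger (version 3.1.0 in the headers of the P12 files and 5.0.1 in those of P2 and P22) on the mouse build mm10, and deposited them as count matrices. Depth is 106402687 and 80386488 UMIs in the P12 libraries. From these counts, cells with 2000 to 8000 detected genes and under 10% mitochondrial UMIs were kept, and cells were assigned to the primed, negative and dividing classes by their UMIs. A symbol carried by several gene identifiers was given to the one with the most UMIs. The members, the gene lists and the tests were chosen with earlier results of these data known.

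UMIs were summed per library and class, since cells of a library are not replicates, and the study's Wilcoxon test over cells was therefore not used. Sums were compared with edgeR 4.0.16 (R 4.3.3): TMM scaling, the default filterByExpr filter, the quasi-likelihood test with the library as block, and Benjamini-Hochberg adjustment over all genes tested at 0.05. The 13 genes of the rule were left out of the tests. Classes come from the same libraries, so the block pairs them by construction. Standard errors were derived from the fold change and the F statistic. DESeq2 1.42.0 was an alternative. For thinning, each cell was drawn down to 5000 UMIs with a fixed seed, leaving out shallower cells. Intervals of shares are exact binomial (Clopper-Pearson) and those of levels exact Poisson, both at 95%, and cover counting error only. Scrublet in scanpy 1.11.5 called 129 of 7006 and 3 of 4596 kept P12 cells doublets. The share in replicate 2 is too low for a working caller, so no cell was removed, and the 5% highest scores were left out as an alternative. The tests were checked on simulated data.

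Genes are named by a fixed rule: the 12 largest rises and the 12 largest falls among genes called, with the same direction in both P12 libraries, also called with gates on thinned counts, and at 20 CPM or more in the higher class; the 3 genes of each list with the smallest p; the genes of a list of key genes; and the 5 largest rises and falls between dividing and primed cells outside the cell cycle lists. Exceptions are marked where they stand. Of the genes this rule gave, 2 are not reported here.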

Additional observations from a re-analysis of the deposited data

Results flagged for a closer look

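Among the named genes called at P12, with at least 10 UMIs in each class at the other age, 11 differences between primed and negative cells had the opposite sign in the single P2 or P22 library to that in both P12 libraries. They are on the log2 scale of CPM plus 1, rest on 12 primed cells at P2 and 24 at P22, and the difference between ages was not tested in any of them. At P22 the Notch effectors Hes1 (0.62) and Hes5 (0.54) were higher in primed cells, whereas both were lower at P12. Ier5 (-0.61), Ldha (-0.29) and Cdk4 (-0.025) were lower in primed cells at P22 and higher at P12. At P2 the lipid synthesis genes Fdps (-0.47) and Sqle (-0.42) and the water channel gene Aqp4 (-1.18) were lower in primed cells, and all 3 were higher at P12. Cebpb (0.60), Tfap2c (0.56) and Crym (3.15) were higher in primed cells at P2 and lower at P12.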

How the results depend on the processing

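Against 524 higher and 375 lower genes in primed cells, thinning to 5000 UMIs gave 344 and 220, DESeq2 called 93 and 39, and edgeR without the block called 0 and 0, with 756 genes at an unadjusted p under 0.05. Without a filter on low counts 554 were higher and 585 lower. Other settings raised the counts, to 738 and 461 without TMM scaling and to 728 and 528 with limits of 2500 to 7500 genes. Leaving out the few cells with an Agt UMI gave 751 and 562. Leaving out a P12 replicate with P2 and P22 added gave 116 to 183 higher and 149 to 250 lower genes (116 and 149 without replicate 1, 183 and 250 without replicate 2). Between dividing and primed cells, against 2822 and 2878, thinning gave 1508 higher and 1486 lower genes, DESeq2 1361 and 1111, and no block 1544 and 1576. The replicate block is the library that both classes share. The subpallial minus pallial share of primed cells, 4.57 points, was 0.656 with all gates on thinned counts, 7.06 with Emx1 against Gsx2 alone, and 4.19 to 4.96 when a replicate was left out. Ccnd1 had a log2 difference of -0.13 without replicate 1 and 1.88 without replicate 2. Crym was at 0.46 without replicate 1 and 0.17 without replicate 2 when P2 and P22 were added. The cause of these changes was not tested. Of the 88 named genes called, 76 passed again in the same direction with all gates on thinned counts, 73 after thinning alone, 62 with negative cells matched on total UMIs and 48 with DESeq2. The 76 include the largest rises and falls, for which passing with gates on thinned counts was a condition of being named. Over all 899 calls, 468 passed with these gates. The alternatives on pallial cells, further cycle genes, ependymal or microglial markers and Agt were chosen after seeing the data. The interaction of class and lineage, and dividing cells with P2 and P22 added, were not run, as sums held under 20 cells.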
